A study of Mus musculus with 6 samples.

Results

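Transcripts of 123 genes with RIKEN clone symbols, from 1700001C02Rik to 1700019P21Rik, were examined in testicular germ cells of *Mgat1* cKO and control mice. Clones of this number series came from an adult mouse testis cDNA library, and the symbols were assigned before most of the genes had a known function. Members were the genes whose symbol on the array starts with a clone number from the lowest to the highest of these and ends in Rik, 123 of 23152 genes measured, with 730 probe sets between them. The germ cells were prepared by collagenase and trypsin digestion of testes from 6 mice of FVB background, 22 days post-partum (dpp). Control mice (n = 3) carried floxed alleles without Cre, *Mgat1*[F/F], and mutant mice (n = 3) were *Mgat1*[F/F]:Stra8-iCre, so both groups were homozygous for the floxed allele. In the mutants Cre is made from a *Stra8* promoter transgene that acts in spermatogonia, and other cells of the testis keep an intact *Mgat1*. *Mgat1* encodes GlcNAcT-I, without which complex N-glycans are not formed. Each mouse gave 1 array of Affymetrix Mouse Gene 2.0 ST, and values are log2 RMA signals. The value of a gene is the mean of its probe sets, so a difference of 1 is 2-fold, and a log2 fold change is cKO minus control. Signals of different genes do not rank their transcript abundance, since probe sets differ in brightness.

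Spermatids are the haploid cells that follow meiosis. During spermiogenesis they build an acrosome, assemble a flagellum around a microtubule axoneme and replace histones with transition proteins and protamines. Many genes used in these steps are expressed only in the testis and were named late, so that an adult testis library is rich in them. At 22 dpp the first wave of germ cells has reached the round spermatid stage.

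The germ cell label and the targeted gene were inspected on each array. Correlations between arrays over all genes were 0.992 to 0.994 within and 0.950 to 0.970 between genotypes. *Mgat1* itself had signals of 6.91, 7.003 and 6.82 in controls and 6.87, 6.69 and 6.80 in cKO mice (log2 fold change -0.13, adjusted p = 0.356), and whether its probe sets lie within the floxed part of the gene is unknown, so that they are no check of genotype, for which the study typed DNA by PCR. Among markers, 20 of 20 elongating spermatid genes rose and their mean per array went from 7.46 to 7.68 in controls to 10.19 to 10.48 in the cKO. Of 20 round spermatid genes 16 rose and 0 fell (8.996 to 9.26 against 10.45 to 10.59). Pachytene genes went both ways, with 4 of 15 raised and 4 lowered. Of 14 genes of early meiotic prophase 7 fell and 1, *Rec8*, rose by 1.34, and of 14 spermatogonial genes 4 fell and 0 rose, where 18.4% of all genes fell. RMA gives every probe set a value on every array, and no detection call was made for the markers of other testis cells. Of these, peritubular and stromal genes fell in 8 of 12 cases with 0 raised (8.30 to 8.63 against 7.63 to 8.06), and 6 of 13 Sertoli cell genes fell and 0 rose (8.21 to 8.33 against 7.78 to 8.08). Of 13 macrophage and immune genes 7 fell and 1, *Aif1*, rose by 1.80 (7.68 to 8.05 against 6.95 to 7.60). Of 9 Leydig cell genes 2 fell and 1, *Insl3*, rose by 0.43 (8.54 to 8.98 against 7.48 to 8.61). Of 10 endothelial genes 1 fell and 2 rose (6.71 to 7.08 against 6.80 to 7.13). The part of these marker shifts in the results below was not tested, and in bulk RNA more cells of a type and more RNA per cell cannot be told apart.

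Clone genes were mostly higher in the *Mgat1* cKO. Of the 123 members 77 (62.6%) rose, whereas 13.3% of all genes on the array did (limma, adjusted p under 0.05). Only 9 members (7.32%) fell, with 18.4% of all genes lowered, and 37 did not pass. At least 2-fold rises were seen in 56 members (45.5%) against 4.18% of all genes, and 21 of the 248 genes that rose at least 4-fold were members. The median log2 fold change was 0.72 over the members and -0.02 over all genes, and the quartiles of the members were 0.08 and 1.61.

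**Figure D1:**
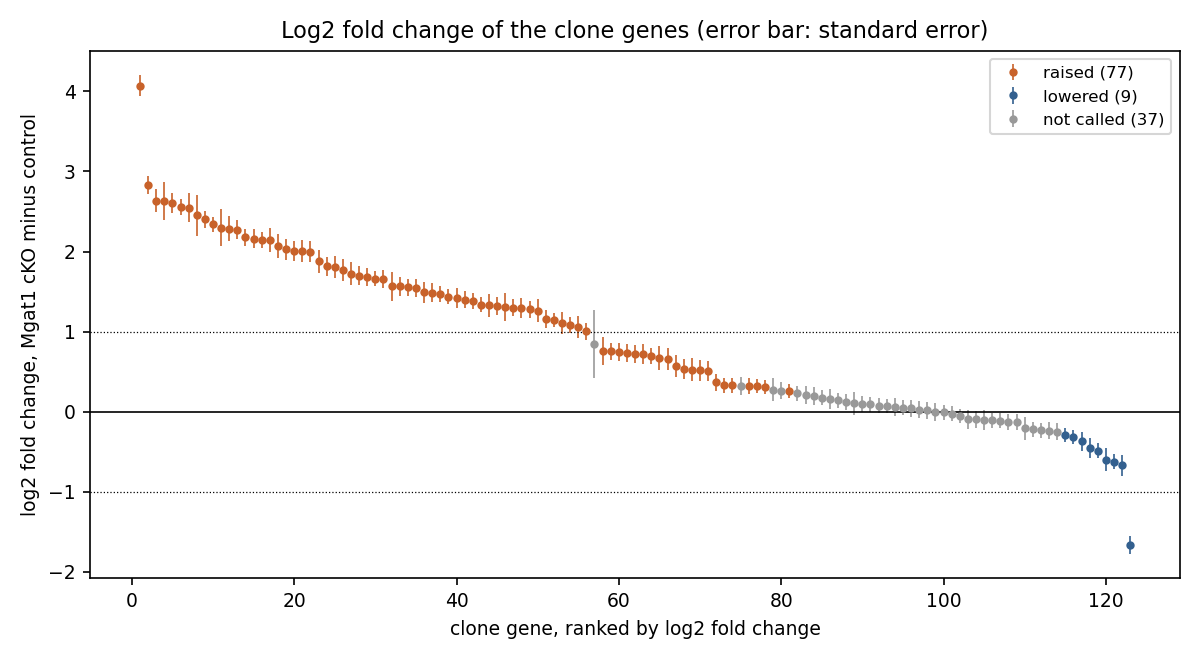
Log2 fold change (cKO minus control) of each of the 123 clone genes, ranked from the largest rise to the largest fall, with the standard error as bar. Colours give the limma call, 77 raised, 9 lowered and 37 not called, and dotted lines mark 2-fold; 1700007F19Rik stands alone at 4.07 and 1700006A11Rik at -1.66.

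The shift was visible on each array. The median signal of the members was 7.80, 7.71 and 7.90 on the control arrays and 9.26, 9.17 and 9.09 on the cKO arrays, while the median of all genes lay between 6.79 and 6.82 on all 6. In 82 members (66.7%) every cKO value exceeded every control value, as it did in 20.1% of all genes, and in 13 (10.6%) every cKO value was below every control value, against 26.6%. Each of the 86 members that passed the test had groups without overlap. So did 7261 of the genes called on the whole array (3088 raised and 4255 lowered), so this is no trait of the clone genes. The arrays of a genotype were not equal. In its group, cKO replicate 1 was the highest in 55 of the 77 raised members, and control replicate 3 in 51. Markers of other testis cells differed between arrays of a genotype as well, and a link to this order was not tested. Over all 123 members the median difference from the control mean was 0.81 in cKO replicate 1, 0.64 in replicate 2 and 0.66 in replicate 3. Over the raised members, which were called by this difference, it was 1.55, 1.37 and 1.40.

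The member that rose most was 1700007F19Rik, which the reference gene table gives as a long non-coding RNA (lncRNA) on chromosome 3. Its signals were 5.75, 5.70 and 6.21 in controls and 9.91, 9.97 and 10.003 in cKO mice. The cKO arrays lay close together and far above every control. The log2 fold change was 4.07 ± 0.13 (SE), or 16.8-fold (adjusted p = 4.30e-07), and only 3 of all 23152 genes had a larger one. Each of its 6 probe sets rose, by 2.14 to 4.95. The function of this RNA is not known here.

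Other non-coding members were among the largest rises. The X-linked lncRNA 1700010D01Rik had signals of 6.36, 6.35 and 6.87 in controls and 9.26, 9.09 and 9.13 in cKO mice, a rise of 2.63 ± 0.14 (adjusted p = 2.03e-06). For the lncRNA 1700001G01Rik of chromosome 18 they were 6.21, 6.70 and 6.77 against 8.61, 9.41 and 8.57, a rise of 2.30 ± 0.23. The spread was wider there, with cKO replicate 2 above the other two, but no cKO value came near a control. The lncRNA 1700003P14Rik was dim, at 3.81, 4.12 and 4.45 in controls, and reached 6.85, 6.96 and 5.92 in the cKO, with 3 of its 4 probe sets raised. The pseudogenes 1700003E24Rik (X chromosome) and 1700019M22Rik (chromosome 12) rose by 2.63 and 2.60. These last, and 1700010D01Rik, rest on 1 or 2 probe sets each and belong to symbols that also share further probe sets with other genes, so near-identical copies may contribute to their signal.

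Of the 5 members now named cilia and flagella associated genes 3 rose and 2 did not pass, where 62.6% of members and 13.3% of all genes rose. *Cfap97d1* (1700006E09Rik), needed to maintain the sperm axoneme, had signals of 7.10, 7.05 and 7.18 in controls and 10.13, 9.93 and 9.77 in cKO mice. It rose by 2.83 ± 0.11 (7.13-fold, adjusted p = 6.85e-07), and all 7 probe sets rose. *Cfap126* (1700009P17Rik), whose product Flattop acts at basal bodies and in cilia, went from 8.64, 8.64 and 8.87 to 10.16, 10.02 and 10.11, a rise of 1.38 ± 0.10 (adjusted p = 8.72e-06), though its 12 probe sets ranged from -0.07 to 4.25. *Cfap157* (1700019L03Rik), needed for the axoneme in spermiogenesis, rose by only 0.69 ± 0.10 (adjusted p = 0.000864). The remaining pair hardly differed between genotypes: *Cfap206* (1700003M02Rik), required for flagellar motility, had a log2 fold change of 0.09 (adjusted p = 0.474; 95% interval -0.11 to 0.29), and *Cfap299* (1700007G11Rik) had 0.10 (adjusted p = 0.475; interval -0.12 to 0.31). Other members with a current name and a known role in the axoneme or sperm tail gave a range of values. *Fam166c* (1700001C02Rik), which encodes a protein inside the lumen of axonemal microtubules, rose by 1.43 ± 0.10. *Ift43* (1700019E19Rik), a subunit of the retrograde intraflagellar transport complex, rose by 0.26 ± 0.09 with an adjusted p of 0.0461, the largest p to pass among the members. *Catsperz* (1700019N12Rik), an auxiliary subunit of the sperm calcium channel, had 0.18 (adjusted p = 0.172; interval -0.03 to 0.38).

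*Spata46* (1700015E13Rik), a gene for shaping of the sperm head and its nuclear envelope, had signals of 7.74, 7.76 and 7.88 in controls and 10.23, 10.06 and 10.12 in cKO mice. Within a genotype these values varied little, and the difference of 2.34 ± 0.09 (5.07-fold, adjusted p = 6.96e-07) had the smallest standard error of the 14 largest rises. *H2al1m* (1700012L04Rik), a testis histone H2A variant of a multicopy X-linked family, went from 6.95, 6.65 and 6.80 to 9.06, 8.76 and 9.06, a rise of 2.16 ± 0.12 (adjusted p = 2.17e-06). It was read by 1 probe set of its own, while 12 further probe sets are shared with other symbols, and its copies could not be separated. *H2bfm* (1700014N06Rik), an H2B gene of the X chromosome, was dim and did not pass (log2 fold change -0.09, adjusted p = 0.592; interval -0.36 to 0.17).

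All 5 members now named testis expressed genes rose, where 62.6% of members and 13.3% of all genes did. *Tex44* (1700019O17Rik), on 1 probe set, went from 6.31, 5.54 and 6.06 to 8.71, 8.37 and 8.48, a rise of 2.55 ± 0.18. *Tex29* (1700018L24Rik) went from 7.40, 7.31 and 7.56 to 9.97, 9.75 and 9.77 (2.40 ± 0.11), with 8 of its 9 probe sets raised by 2.22 to 3.25 and 1 lowered by 1.87. *Tex48* rose by 2.01, *Tex37* by 1.68 and *Tex45* by 1.30, the smallest of the 5. Groups did not overlap in any of them. *Scp2d1* (1700010M22Rik), with a sterol carrier domain, rose by 2.18 ± 0.11, and *Iqcm*, with an IQ motif, by 2.01 ± 0.13. *Tcp11x2*, an X-linked relative of *Tcp11*, rose by 1.72, the keratin gene *Krt88* by 1.70 and *Actl10*, an actin-like gene, by 1.15. Of the other renamed members *Fam24b* rose by 2.07, *Pttg1ip2* by 2.03, *Tescl* by 1.88, *Smim23* by 1.81, *ccdc198* by 1.56 and *Ms4a20* by 0.33. Those that did not pass were *Med9os* (0.23), *Lncbate3* (0.21), *Ccdc7b* (0.14), *Ccdc192* (0.06) and *Nat8f4* (-0.21).

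Protein-coding members still known by clone number numbered 36, of which 28 rose and 1 fell. Of 34 that had received a gene name 23 rose and 2 fell. Among all protein-coding genes 12.7% rose and 19.7% fell, and the difference between named and unnamed members was not tested. Among the former, 1700016C15Rik went from 4.88, 4.90 and 5.16 to 7.59, 7.51 and 7.51 (2.56 ± 0.10), and 4 of its 6 probe sets rose. For 1700009N14Rik the signals were 8.22, 8.06 and 8.64 against 10.75, 10.60 and 10.43, a rise of 2.29 ± 0.15 seen in each of its 4 probe sets. In both the cKO values stood apart from the controls by more than the spread of either group. The gene 1700016H13Rik rose by 2.27 ± 0.11, but its probe sets disagreed, with 6 of 9 raised by up to 3.83 and the brightest at -0.02.

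**Figure D2:**
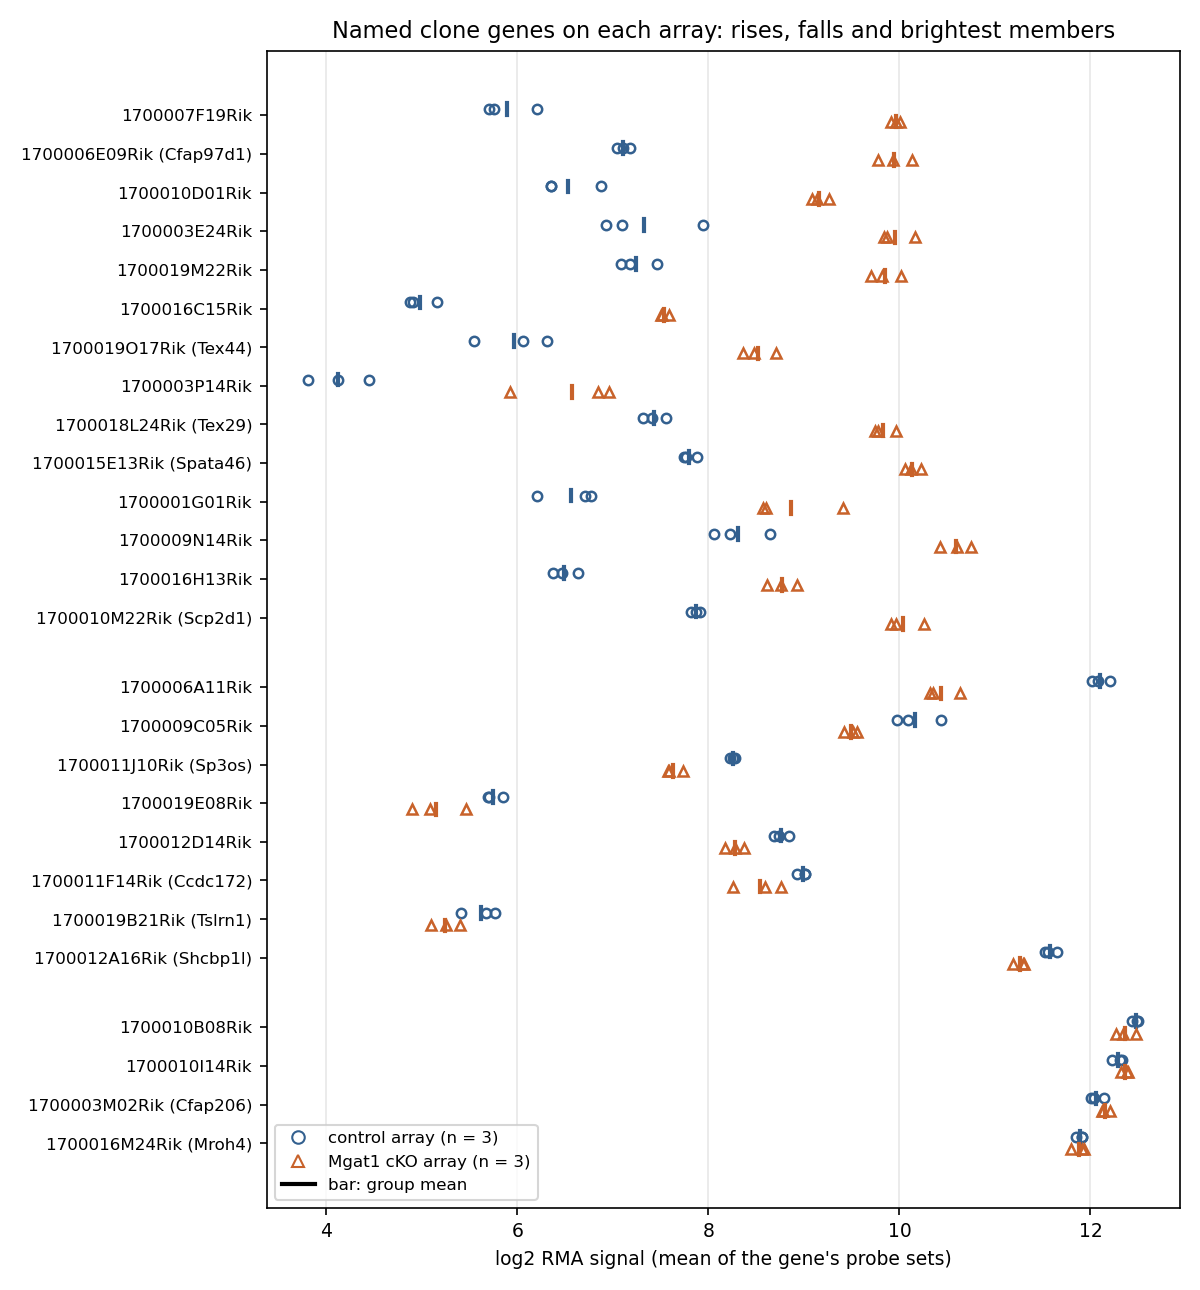
Log2 RMA signal of the 14 largest rises, the 8 largest falls and the 4 members of highest mean signal on each array (circles, control; triangles, cKO; bars, group means; n = 3). The rises and falls were picked among members without overlap, and their groups are apart by the least in 1700019B21Rik (5.41 in a control against 5.40 in a cKO array). Groups overlap in the 4 brightest.

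The largest fall was that of 1700006A11Rik, a protein-coding gene of chromosome 3. Its signals were 12.20, 12.07 and 12.02 in controls and 10.32, 10.35 and 10.64 in cKO mice. It was the only member lowered at least 2-fold (0.813% of members against 0.488% of all genes), at -1.66 ± 0.11 (adjusted p = 5.74e-06). Its 13 probe sets did not move together. A single probe set read 12.16, 12.14 and 12.11 in controls and 3.39, 2.91 and 3.78 in cKO mice, a difference in log2 signal of -8.78, and 0 of the 233753 probe sets with 1 symbol had a lower one. Its cKO signals lie near the lowest value in the data, 2.11, and were not shown to be above background, so the size of this difference is no measured ratio of RNA. A pair of others had -3.28 and -2.71, and the remaining 10 lay between -0.42 and -1.02. Without the lowest probe set the gene had -1.07 (adjusted p = 9.57e-05) and without the 3 lowest -0.68 (adjusted p = 0.00157), so a fall was left but not one of 2-fold. What sets these probe sets apart was not tested.

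**Figure D3:**
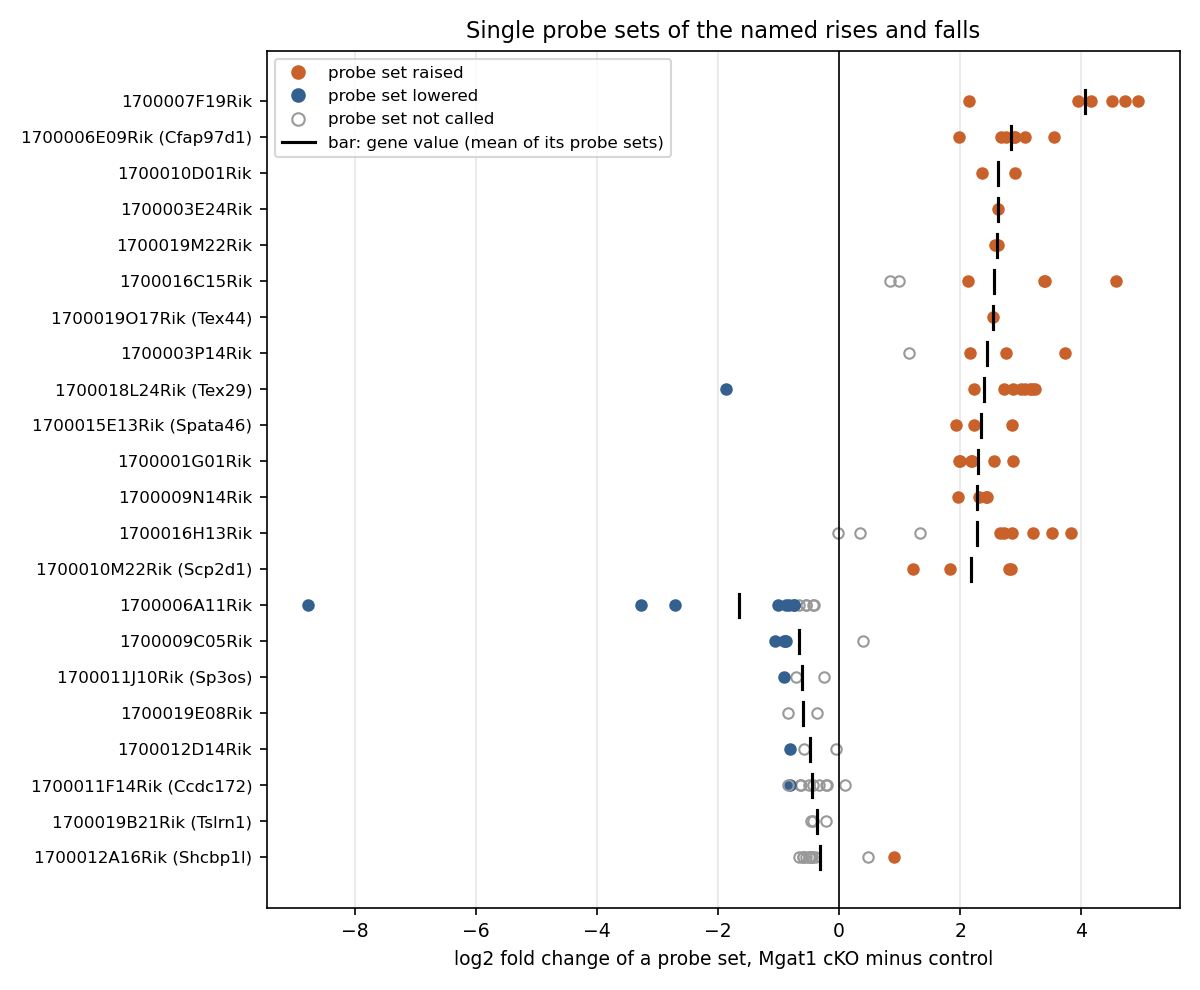
Log2 fold change of each probe set of the named rises and falls (filled, called by limma over all 233753 probe sets; open, not called), with the value of the gene as a black bar. The probe sets of 1700007F19Rik lie between 2.14 and 4.95, and in 1700006A11Rik 1 probe set lies at -8.78.

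The other falls were small. The lncRNA 1700009C05Rik had signals of 10.44, 9.97 and 10.09 in controls and 9.42, 9.56 and 9.51 in cKO mice, a log2 fold change of -0.67 ± 0.13 (adjusted p = 0.00389), with 4 of 5 probe sets lowered. *Sp3os* (1700011J10Rik), named as the opposite strand of the transcription factor gene *Sp3*, had 8.26, 8.28 and 8.22 against 7.59, 7.73 and 7.58 (-0.62 ± 0.09, adjusted p = 0.000885). Controls were nearly identical there and stood clear of the cKO. The lncRNAs 1700019E08Rik (-0.60) and 1700012D14Rik (-0.48) and *Tslrn1* (1700019B21Rik; -0.37), a testis lncRNA of the X chromosome, were lower as well. The median of probe sets gave 1700012D14Rik only -0.05 (adjusted p = 0.794). Among protein-coding genes *Ccdc172* (1700011F14Rik), which encodes a binding partner of the tail protein tektin 2, fell by 0.45 ± 0.13 (adjusted p = 0.026). *Shcbp1l* (1700012A16Rik), a gene for the meiotic spindle, had 11.65, 11.52 and 11.56 in controls and 11.19, 11.29 and 11.30 in cKO mice (-0.32 ± 0.09, adjusted p = 0.0244). Of the 9 members that fell, 6 were lncRNAs and 3 protein-coding.

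With any array left out in turn 5 of the 9 falls passed each time, and 4 close to the threshold did not. *Ccdc172* lost its call without control replicate 2 or 3 or cKO replicate 1 or 2 (log2 fold change -0.31 to -0.48) and *Tslrn1* without control replicate 2 or 3 or cKO replicate 2 or 3 (-0.29 to -0.37). *Shcbp1l* lost it without control replicate 1 or 3 or cKO replicate 1 or 2, with values of -0.28 to -0.33 that hardly moved. The lncRNA 1700003G18Rik, the smallest fall at -0.29 (adjusted p = 0.034), passed without control replicate 2 (-0.33) and in no other of these fits (-0.25 to -0.31). Without control replicate 3, or without cKO replicate 2, 5 members fell in place of 9. The count of rises was steadier, at 70 to 76 with any array left out, and 68 of the 77 raised members passed each time.

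The brightest members differed little between genotypes. *Mroh4* (1700016M24Rik) had 11.91, 11.84 and 11.91 in controls and 11.79, 11.91 and 11.93 in cKO mice (log2 fold change -0.01, interval -0.21 to 0.19), and all of its 26 probe sets lay between -0.15 and 0.26. The gene 1700010B08Rik had 12.50, 12.43 and 12.49 against 12.27, 12.34 and 12.47 (-0.11, interval -0.32 to 0.10). For 1700010I14Rik the values were 12.31, 12.22 and 12.33 against 12.32, 12.39 and 12.38 (0.08, interval -0.12 to 0.27). The groups overlapped in all 3, and in each the interval leaves room for a change of less than 1.5-fold only. Members nearest to 0 beside *Mroh4* were the lncRNA 1700011M02Rik (-0.01), *Stpg4* (1700011E24Rik; 0.02), a gene with a sperm-tail repeat, and 1700017B05Rik (-0.02). The sign of these values near 0 changed with the processing and has no meaning.

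Among the 27 members with a mean signal of 10 or more, 9 rose (33.3%, against 13.4% of all genes of that brightness), 3 fell and the median log2 fold change was 0.10. Only 2 of these rises were 2-fold, those of the lncRNA 1700017J07Rik (1.77) and of 1700012P22Rik (1.08), which are named here after their values were seen. Between 8 and 10, 34 of 46 members rose (73.9% against 17.2%; median 1.42), between 6 and 8, 23 of 33 (69.7% against 14.5%; median 1.15), and under 6, 11 of 17 (64.7% against 9.33%; median 0.67). Rises were thus found at all signal levels, with the lowest median in the brightest members. The mean signal takes in the cKO arrays, so a rise by itself moves a gene toward a higher level.

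**Figure D4:**
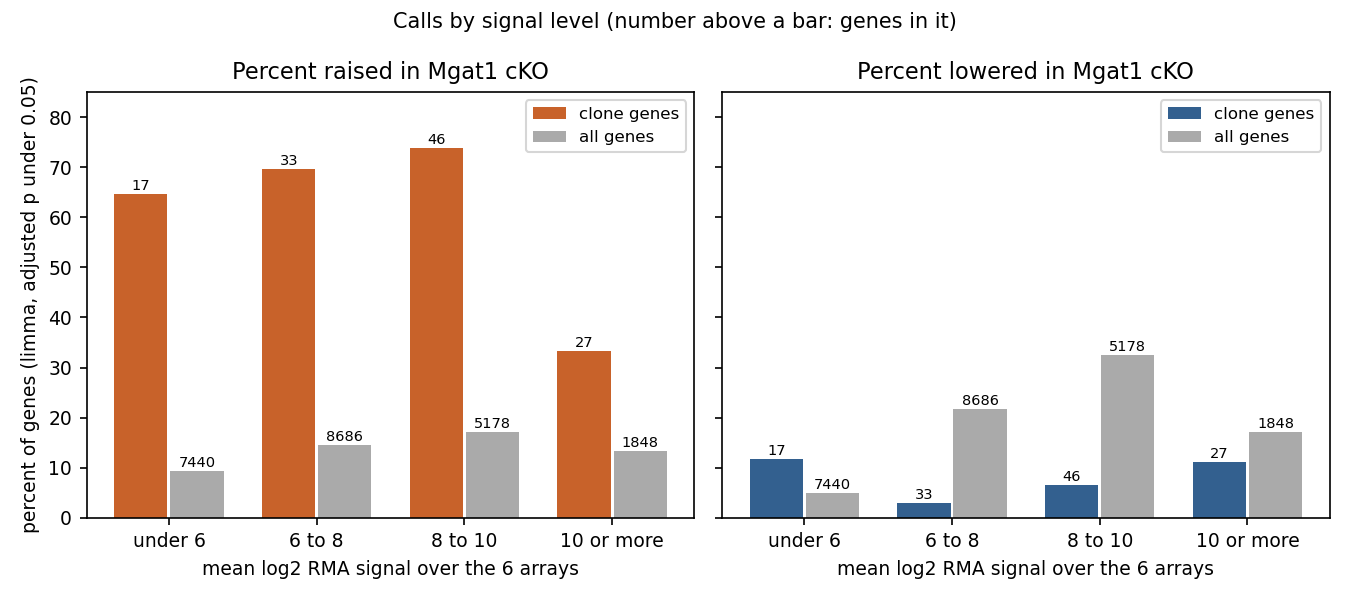
Percent of genes raised (left) and lowered (right) in the cKO by mean log2 signal over the 6 arrays, for clone genes (coloured) and all genes (grey), with the number of genes above each bar. The share of clone genes raised is 64.7 to 73.9% below a signal of 10 and 33.3% from 10 upward.

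Transcript type was taken from the reference table, which lists 70 members as protein-coding, 49 as lncRNA and 4 as pseudogenes. Protein-coding members rose in 51 cases and fell in 3 (median 1.28), with 12.7% of all protein-coding genes raised and 19.7% lowered. LncRNA members rose in 24 cases and fell in 6 (12.2%; median 0.32), with 21.5% of all lncRNAs on the array raised and 8.36% lowered. At least 2-fold rises numbered 39 (55.7%) and 15 (30.6%), against 3.88% of all protein-coding genes and 7.77% of all lncRNAs. The difference between the types was not tested, and lncRNA members had fewer probe sets (median 3 against 7) and lower signal (median 7.38 against 8.93). Of 9 X-linked members 5 rose and 1 fell, and of 114 autosomal members 72 and 8. Shares over all X-linked or autosomal genes are not given, and this difference was not tested.

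**Figure D5:**
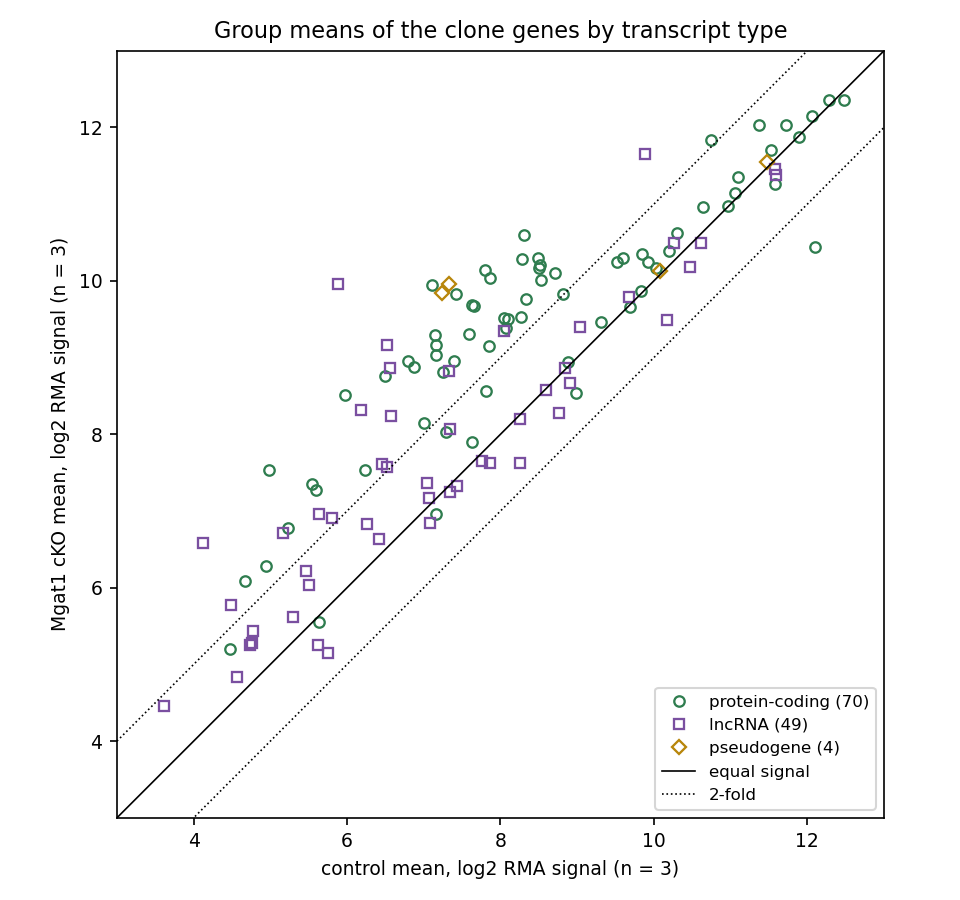
Mean log2 signal of each of the 123 clone genes in controls (x axis) and cKO (y axis), n = 3 each, by transcript type. Most points lie above the line of equal signal, 56 above the upper 2-fold line, and the points nearest the upper right corner lie on the line of equal signal.

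In 71 of the 117 members with 2 or more probe sets, the log2 fold changes of all probe sets had the same sign, called or not. The share over all genes is not given, so this is not shown to be a trait of the clone genes. Tested singly, 285 of the 730 member probe sets rose (39.0%, against 4.98% of all probe sets with 1 symbol) and 21 fell (2.88% against 3.97%). Of 73 raised members with 2 or more probe sets, 55 had every probe set higher in the cKO, and 21 had every probe set called as raised. The call of a member rests on the mean of these same probe sets, so the 55 are not independent of it. A probe set fell in 3 raised members, *Tex29*, 1700001C19Rik and 1700017N19Rik. Of the 37 members not called, 4 had a called probe set, and in 1700003H04Rik 1 rose and 1 fell by 1.599. Probe sets of 1 gene share each mouse's RNA and are no replicates.

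Genes with higher clone numbers of the same series, 296 in all, were counted in the same fit, with 174 raised (58.8%) and 22 lowered and a median of 0.51. In clones of other adult testis number series, 645 genes, 317 (49.1%) rose with a median of 0.35. Clones of all other libraries, 1489 genes, rose in 144 cases (9.67%), with a median of 0.02, and genes with no clone symbol in 2376 of 20599 (11.5%). The sets differ in brightness and probe sets per gene, with median signals of 8.53 in the members, 7.47 and 7.02 in the other testis clones and 6.17 in clones of other libraries, and the differences between the sets were not tested.

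Some members, 29 of 123, overlap another measured gene in the genome or are named as its opposite strand, a check added after the values were seen. *Med9os* was counted by its name only. The 15 raised ones among them form 17 pairs, and the partner rose in 6, fell in 2 and did not pass in 9. Of all genes 13.3% rose and 18.4% fell. *Necab3* is counted once for each member it overlaps, and whether partners rise more often than other genes was not tested. The lncRNA *Slfn5os* (1700003F17Rik) rose by 2.14 ± 0.15, while *Slfn5*, an interferon-induced gene on the opposite strand, had -0.26 (adjusted p = 0.0909). *Actl10* and 1700003F12Rik both overlap *Necab3*, and all 3 rose, by 1.15, 1.40 and 1.07. The lncRNA 1700007P06Rik and *Spata17*, which it overlaps, rose by 1.31 and 0.69. *Sp3* had -0.34 beside *Sp3os*, and *Rab10*, a small GTPase gene, -0.40 beside *Rab10os* (-0.23, adjusted p = 0.0949). Signal from a partner on the same strand cannot be told apart from that of the member where their exons overlap.

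Values near the thresholds were as follows. *Ift43*, at an adjusted p of 0.0461, was the last to pass, and the lncRNA 1700010L04Rik (0.32), at 0.0538, the first that did not. Among raised members the 2-fold line lay between 1700007K13Rik (1.01) and 1700016L21Rik (0.76). The lncRNA 1700010I02Rik, picked after its values were seen, read 3.67, 3.50 and 3.66 in controls and 3.91, 3.73 and 5.73 in cKO mice. Only cKO replicate 3 was high, and the log2 fold change of 0.85 (adjusted p = 0.163) became 0.21 without it. For the other 36 members that did not pass, the 95% intervals stayed within -0.52 and 0.59.

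Start regions of the genes, 250 bases before to 50 after the start, were searched for elements bound by factors that act in spermatids, since many members moved together. RefSeq (GRCm38.p6) start regions were found for 92 members, and for 27025 genes in all, with every listed start of a gene searched on both strands. The cAMP response element TGACGTCA, the site of CREM, was found in 0 of the 92 members and 2.03% of all genes. Its testis form TGACGTAA, which differs from it in 1 letter, was in 1.09% of members (1700016G22Rik alone) and 0.581% of all genes. The letters GTTGCC are only a part of the X-box, the site of RFX factors that drive cilia genes. GTTGCC was in 15 members (16.3%) and 14.1% of all genes. It was in 10 of the 60 raised members with a start region and in 5 of the other 32. The share with GTTGCC thus lay close to that of all genes, and a whole X-box was not searched. The response element and its testis form, with 0 and 1 members, were too rare for their shares to be compared. Only exact letters were searched, and no difference was tested. Windows are shown for the largest rise and for 3 of the 10 raised members with GTTGCC. A bright member that did not pass and the member with the testis element are shown as well. Searched letters on the other strand appear in reverse complement. All windows hold the 250 bases before the start, 5′ to 3′ on the strand of the gene, with searched letters in capitals. They lie at chr3:58163808-58164057 (-) for 1700007F19Rik, chr5:30465827-30466076 (+) for *Fam166c*, chr12:110682620-110682869 (-) for 1700001K19Rik, chr6:70918923-70919172 (-) for *Tex37*, chr17:8988083-8988332 (+) for 1700010I14Rik and chr13:5858093-5858342 (-) for 1700016G22Rik.
1700007F19Rik: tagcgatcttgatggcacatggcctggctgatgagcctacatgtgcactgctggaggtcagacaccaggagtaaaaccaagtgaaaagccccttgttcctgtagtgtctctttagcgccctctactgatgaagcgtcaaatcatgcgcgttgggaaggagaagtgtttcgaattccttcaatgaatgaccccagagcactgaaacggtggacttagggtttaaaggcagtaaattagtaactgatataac
Fam166c (1700001C02Rik): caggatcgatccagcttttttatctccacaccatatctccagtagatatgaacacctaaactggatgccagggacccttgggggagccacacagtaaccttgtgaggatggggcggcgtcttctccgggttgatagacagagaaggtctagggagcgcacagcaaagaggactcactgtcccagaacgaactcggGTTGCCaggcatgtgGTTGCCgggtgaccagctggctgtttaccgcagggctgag
1700001K19Rik: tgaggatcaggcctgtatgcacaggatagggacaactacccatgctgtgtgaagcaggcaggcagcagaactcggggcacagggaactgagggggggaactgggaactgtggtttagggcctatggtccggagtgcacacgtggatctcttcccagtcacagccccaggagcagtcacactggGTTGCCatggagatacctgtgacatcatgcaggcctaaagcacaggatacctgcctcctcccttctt
Tex37 (1700011F03Rik): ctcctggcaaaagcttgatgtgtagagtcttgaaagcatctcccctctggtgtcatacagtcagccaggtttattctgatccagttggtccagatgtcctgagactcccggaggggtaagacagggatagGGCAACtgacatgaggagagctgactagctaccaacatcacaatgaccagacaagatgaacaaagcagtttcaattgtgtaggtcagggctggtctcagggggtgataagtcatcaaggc
1700010I14Rik: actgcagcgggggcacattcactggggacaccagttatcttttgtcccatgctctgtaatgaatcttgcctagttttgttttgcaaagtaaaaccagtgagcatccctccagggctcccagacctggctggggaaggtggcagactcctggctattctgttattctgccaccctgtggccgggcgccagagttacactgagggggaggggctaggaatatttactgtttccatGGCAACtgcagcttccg
1700016G22Rik: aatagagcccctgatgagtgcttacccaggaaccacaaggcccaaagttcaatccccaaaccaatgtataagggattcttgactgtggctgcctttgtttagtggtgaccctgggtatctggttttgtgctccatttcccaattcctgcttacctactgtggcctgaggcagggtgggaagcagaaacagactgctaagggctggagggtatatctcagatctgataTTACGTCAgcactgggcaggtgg

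*Fam166c*, with 2 copies of GTTGCC, rose by 1.43, 1700001K19Rik by 2.00 and *Tex37* by 1.68. Among the windows shown, the copy nearest to the start was that of 1700010I14Rik, which had 0.08. A copy in 1700001L19Rik, whose window is not shown, lay nearer to the start, and this member rose by 1.30. The window of 1700007F19Rik, at 4.07, held none of the searched letters, and 1700016G22Rik had -0.10 (adjusted p = 0.582). A match of letters describes the sequence and shows no binding.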

How the data were processed

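Total RNA of germ cells from 6 mice was hybridised to 1 array each. Per the labels, the authors obtained log2 RMA values with Affymetrix Expression Console, which brings all arrays to a common distribution, so that a change in total RNA per cell is not seen. The deposited log2 values of 269751 probe sets were used as given. Gene symbols came from the platform annotation: 233753 probe sets had 1 symbol, 5139 had several and 30859 none, and only the first kind was used. A gene value was the mean of its probe sets. Another 6 clone symbols of the range occur only on shared probe sets and were not used. Current names, types and chromosomes came from a RefSeq gene table (GRCm38.p6), which held all 123 members. Values range from 2.11 to 14.33, and the number of arrays limits the precision.

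Groups and replicate numbers came from the sample labels. The fit was limma 3.58.1 (lmFit and eBayes, R 4.3.3) over all 23152 genes, or over all 233753 probe sets, without covariates. Tests were 2-sided, p-values were adjusted by Benjamini-Hochberg, and calls were made at an adjusted p under 0.05. The study's methods use a one-way ANOVA, tried as an alternative. The script was tested on simulated data. Litters are not given, and p-values set the group difference against the spread between mice of a genotype. The study numbers its mice consecutively within each genotype. Whether genotype coincides with litter or preparation was not tested, and the spread within groups would not cover it. Figures were drawn with matplotlib 3.10.9.

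Members named in the text were the 14 largest rises and 8 largest falls without overlap between groups, the 4 of highest mean signal, the 4 uncalled members nearest to 0 with a signal above the median of all genes, those at the thresholds and those with a current gene name. Members beside these were named after their values were seen. The members and the gene lists were chosen with earlier results of these data known. Alternatives changed the gene summary, dim probe set filter, normalization, variance model, test, array weights, arrays used, replicate block, fold and the treatment of genes with 1 probe set.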

Additional observations from a re-analysis of the deposited data

How the results depend on the processing

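The number of clone genes raised, 77, ranged from 65 with the one-way ANOVA after Benjamini-Hochberg to 79, and 0 members were called in the opposite direction under any setting. With each array left out in turn, 70 to 76 members rose, 5 to 7 fell, 53 to 56 rose at least 2-fold, 1 fell at least 2-fold each time and the median log2 fold change was 0.66 to 0.76. The number that fell, 9, became 5 without control replicate 3, without cKO replicate 2, with the median of probe sets, with the brightest probe set and with the ANOVA. Calls over all genes changed as well. From 3088 raised and 4255 lowered they became 2141 and 2408 with the ANOVA. With the median of probe sets they were 2354 and 2629, and with the brightest probe set 2315 and 2194. With arrays centred 3654 of all genes rose and 3426 fell, so the share of all genes lowered depends on the normalization. The median of probe sets gave a median log2 fold change of 0.88 in place of 0.72, and with it or the brightest probe set 0 members fell at least 2-fold. The cause was not tested. Leaving out members with shared probe sets, a setting chosen after seeing the data, gave 70 raised and 9 lowered of 115.

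Replicate numbers did not pair the samples (correlations of deviations over numbers 0.03, 0.10 and -0.06). With the replicate number as a block 76 members rose, 7 fell, 56 rose at least 2-fold and the median was 0.72.

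Of named members, 1700016H13Rik turned from 2.27 to -0.0152 with its brightest probe set (adjusted p = 0.96). The others that turned sign were all uncalled and near 0. *Mroh4* (1700016M24Rik) had 0.0018 without control replicate 1 or 3, 0.034 without cKO replicate 1, 0.0484 with the median of probe sets and 0.0406 with arrays centred, within -0.0369 to 0.034 with an array left out. 1700011M02Rik had 0.0922 without control replicate 3, 0.0079 without cKO replicate 2, 0.16 with the median, 0.0413 centred and 0.0452 after further quantile normalization, within -0.105 to 0.0922 with an array left out. *Stpg4* (1700011E24Rik) had -0.0726 without control replicate 1, and -0.0036 and -0.02 without cKO replicates 2 and 3, within -0.0726 to 0.0736. 1700017B05Rik had 0.0086 without control replicate 1, 0.0038 without cKO replicate 1, 0.0121 without the dimmer 25% or 50% of probe sets and 0.0274 centred, within -0.0525 to 0.0086. Over named members 444 alternative values kept direction and call, 27 lost the call and 19 turned sign. Members whose probe sets were all removed by a filter had no value.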
